A study of Mus musculus with 3 samples.

Results

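Described here are 7 Kruppel-like factor (KLF) genes, Klf1, Klf2, Klf3, Klf4, Klf6, Klf10 and Klf13, out of 32285 genes counted in mouse bone marrow. They were picked by gene symbol, and all 7 were found once each in the deposited gene lists. Live marrow cells negative for the lineage antigens Ter119, B220, Gr1, CD11b and CD3 were sorted from mice of 3 genotypes and profiled by droplet single-cell RNA sequencing with the 10x 3' v3 chemistry. The mice were 8 weeks old when they received 3 doses of pIpC, a double-stranded RNA mimic given at 12 mg/kg every other day, and marrow was collected 4 weeks later. The Cre-negative control has the strain label Rit1M90I/+Mx1Cre-, and its title adds the word wildtype. The library called here the Lztr1 knockout is from Lztr1fl/fl;Mx1Cre+ marrow and the library called Rit1-M90I is from Rit1M90I/+;Mx1Cre+ marrow. All 3 groups were given pIpC. Mx1-Cre is a recombinase under an interferon-inducible promoter, so it acts in interferon-responsive cells of many kinds and not in blood cells alone. Cre is present in the 2 mutant libraries and absent from the control, so the allele and the recombinase cannot be told apart. Each genotype has 1 library, both comparisons share the control, and no test between genotypes was possible. Every difference below is between libraries. Values in parentheses are 95% intervals that cover counting error only.

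KLF proteins are transcription factors that bind GC-rich and CACC-type DNA elements through zinc fingers at their C-terminal end, while their N-terminal parts differ and recruit either coactivators or corepressors. In blood, KLF1 turns on red cell genes, KLF2 keeps lymphocytes quiescent and controls their traffic, and KLF4 promotes monocyte differentiation. KLF3 is a repressor that acts in a circuit with KLF1, and KLF6, KLF10 and KLF13 are made in many cell types. LZTR1 is an adaptor of a CUL3 ubiquitin ligase whose substrates include RIT1, a small GTPase of the RAS family.

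The deposited tables held 30398349 to 88560148 UMIs (distinct mRNA tags) per library. After filters on depth, genes, mitochondrial share and doublets, 7273 control, 2338 Lztr1 knockout and 9367 Rit1-M90I cells remained, with median depths of 6861, 9922.5 and 6590 UMIs. Cells were assigned to populations from lists of marker genes, none of them a KLF gene, and each population name below stands for "cells like the named type" by that list. Between 81.5% and 83.7% of cells were assigned, 2 to 9 cell barcodes were shared by any pair of libraries, and 8 populations held at least 50 cells in every library. Lztr1 was lower in the library labelled knockout, with 17.3, 6.34 and 15.2 CPM (UMIs of a gene per 1000000 UMIs) in the control, knockout and Rit1-M90I. Which exons were deleted is not given in the sources here, so the 3' tags may not report the deletion. The monocyte population also carried early neutrophil markers (2975, 3215 and 4051 CPM summed in its median cell, against 3451, 3158 and 3837 CPM for its own markers), with the defining marker Fcgr1 at 0.926 to 2.77 CPM. T cells were present although the sort was against CD3 (Cd3e 397 to 512 CPM), and 53 of them came from the knockout library. The highest list of another type in the median T cell was that of NK cells in the control (1925 CPM) and of early neutrophil progenitors in the knockout and Rit1-M90I (1848 and 1961 CPM).

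The 7 genes divided into 5 with a clear peak in 1 or a few lineages and 2 whose highest population stood less far above the median population. In the control, the log2 ratio of the highest population to the median of the 14 populations of at least 50 cells was 3.82 for Klf1, 3.88 for Klf2, 3.70 for Klf4, 2.53 for Klf6 and 2.02 for Klf3, on the log2(CPM + 10) scale. Klf13 reached 1.01, against a median of 0.91 over the 5837 genes compared, each at 50 CPM or more in some population. Klf10, at 0.85, peaked at 45.4 CPM and was not among those genes, and the 10 CPM added shrinks the ratios of so low a gene. Klf1, Klf2 and Klf4 ranked at the 96.0, 96.2 and 95.5 percentiles of those genes, Klf6 at 87.3, Klf3 at 82.0 and Klf13 at 56.2. Among those 14 the highest population was erythroid progenitors for Klf1, NK cells for Klf2, T cells for Klf3, the monocyte lineage for Klf4, basophils and mast cells for Klf6 and for Klf10, and pro-B and pre-B cells for Klf13. Among the 8 populations that every library filled, the peak of each of the 7 genes was in the same population in all 3 libraries.

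**Figure D1:**
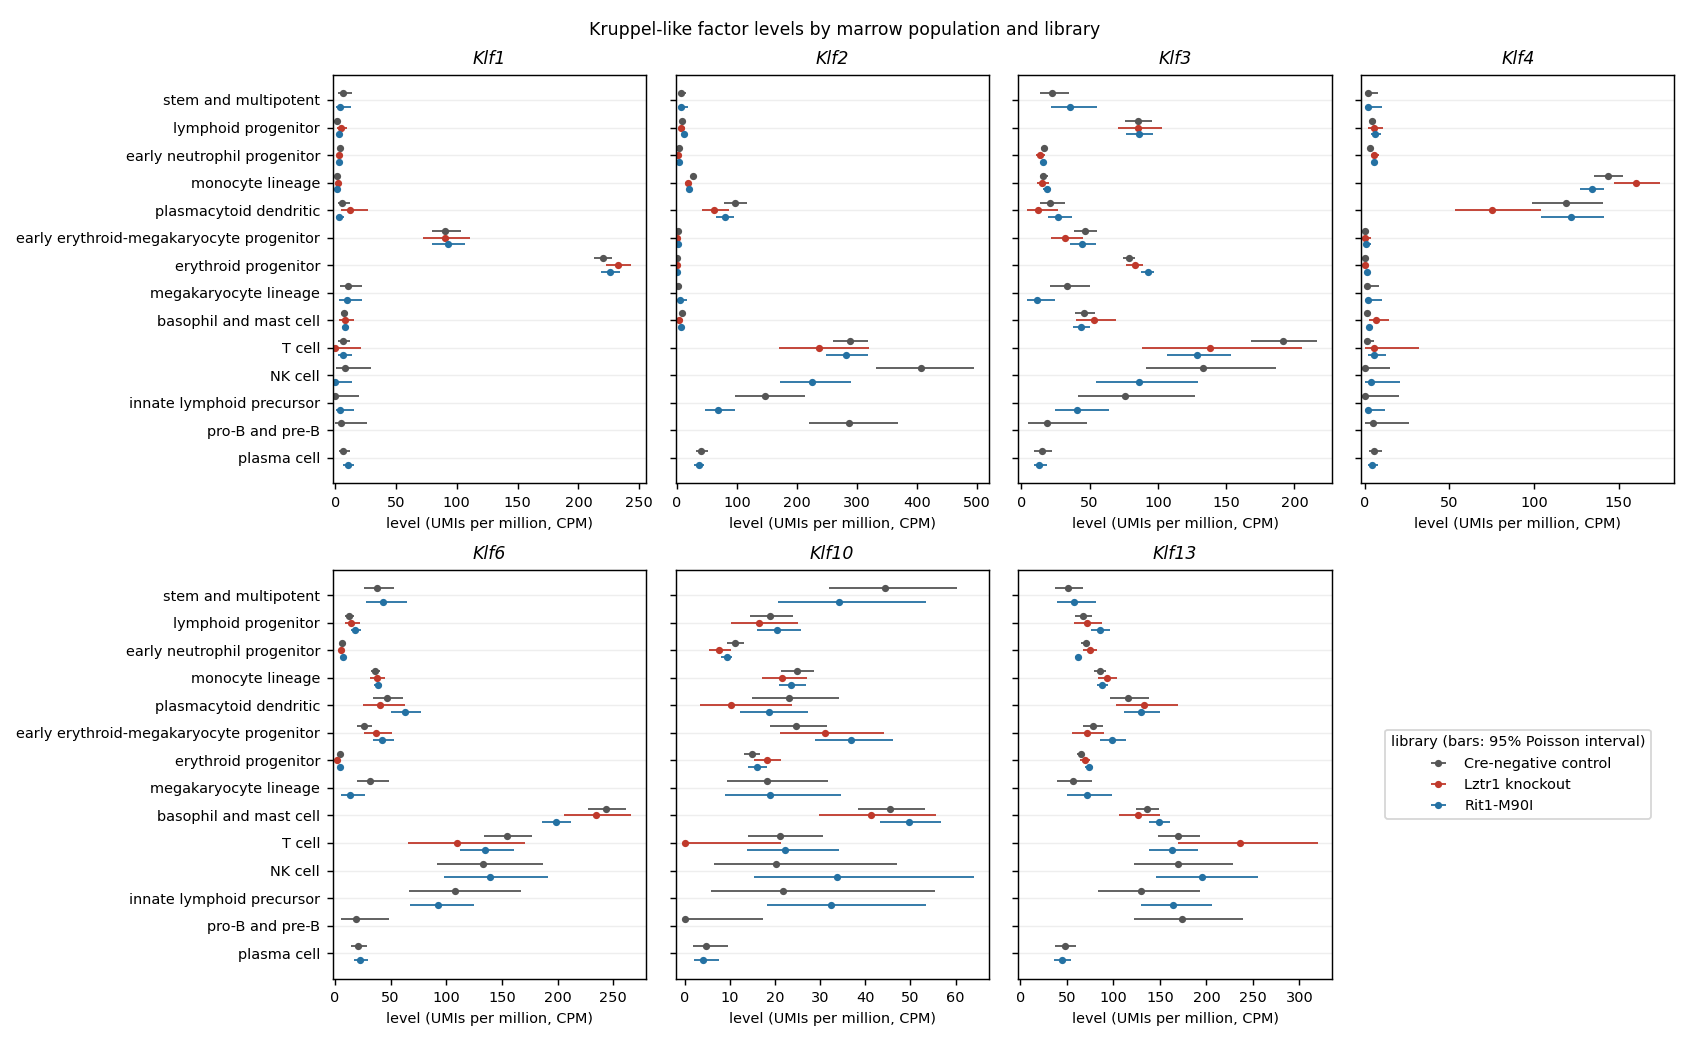
CPM of each of the 7 KLF genes by population and library, for populations of at least 50 cells; bars are 95% Poisson intervals for counting error. Klf1 is between 220.3 and 233 CPM in erythroid progenitors of the 3 libraries, Klf4 is above 70 CPM in the monocyte lineage and plasmacytoid dendritic cells and under 10 CPM elsewhere, and Klf13 is above 40 CPM in every population.

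Few members differed between libraries within a population. A gene was compared where it reached 20 CPM in either library, and a difference was counted when the ratio of (CPM + 10) passed 1.5-fold either way. In all kept cells, 1 of 6 measured members (Klf2, lower) was past that fold in the knockout, against 0.658% of 6081 genes, and 0 of 6 in Rit1-M90I, against 0.566% of 6011 genes. The members' median log2 ratio there was 0.02 in the knockout and -0.12 in Rit1-M90I, with all genes at 0.02 and -0.05.

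In lymphoid progenitors 0 of 2 members were past the fold in the knockout (all genes, 1.37%) and 0 of 3 in Rit1-M90I (0.845%). In early neutrophil progenitors it was 0 of 1 in each (0.522% and 0.673%), and in the monocyte lineage 0 of 5 in each (0.42% and 0.461%). Those populations therefore held no member past the fold. In early erythroid-megakaryocyte progenitors it was 0 of 5 in each (2.05% and 0.982%), in erythroid progenitors 0 of 3 in each (0.27% and 0.359%), and in basophils and mast cells 0 of 4 in each (1.83% and 0.552%). Plasmacytoid dendritic cells had 2 of 6 members lower in the knockout (Klf4 and Klf10, 8.79% of all genes) and 0 of 6 in Rit1-M90I (3.56%). T cells had 1 of 5 lower in the knockout (Klf10, 23.8%) and 0 of 5 in Rit1-M90I (4.48%). No member was past the fold upward in any of these comparisons.

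A further 5 populations had 50 cells in the control and in Rit1-M90I only. In Rit1-M90I 0 of 4 members were past the fold in stem and multipotent cells (8.75% of all genes) and 0 of 3 in plasma cells (3.01%). It was 2 of 3, both lower, in the megakaryocyte lineage (Klf3 and Klf6, 11.7%), 1 of 5 in NK cells (Klf2, lower, 27.7%) and 2 of 5 in innate lymphoid precursors (Klf2 and Klf3, lower, 27.3%). In the knockout T cells, the NK cells and the innate lymphoid precursors so many of all genes were past the fold that the members' counts there say nothing particular about them.

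**Figure D2:**
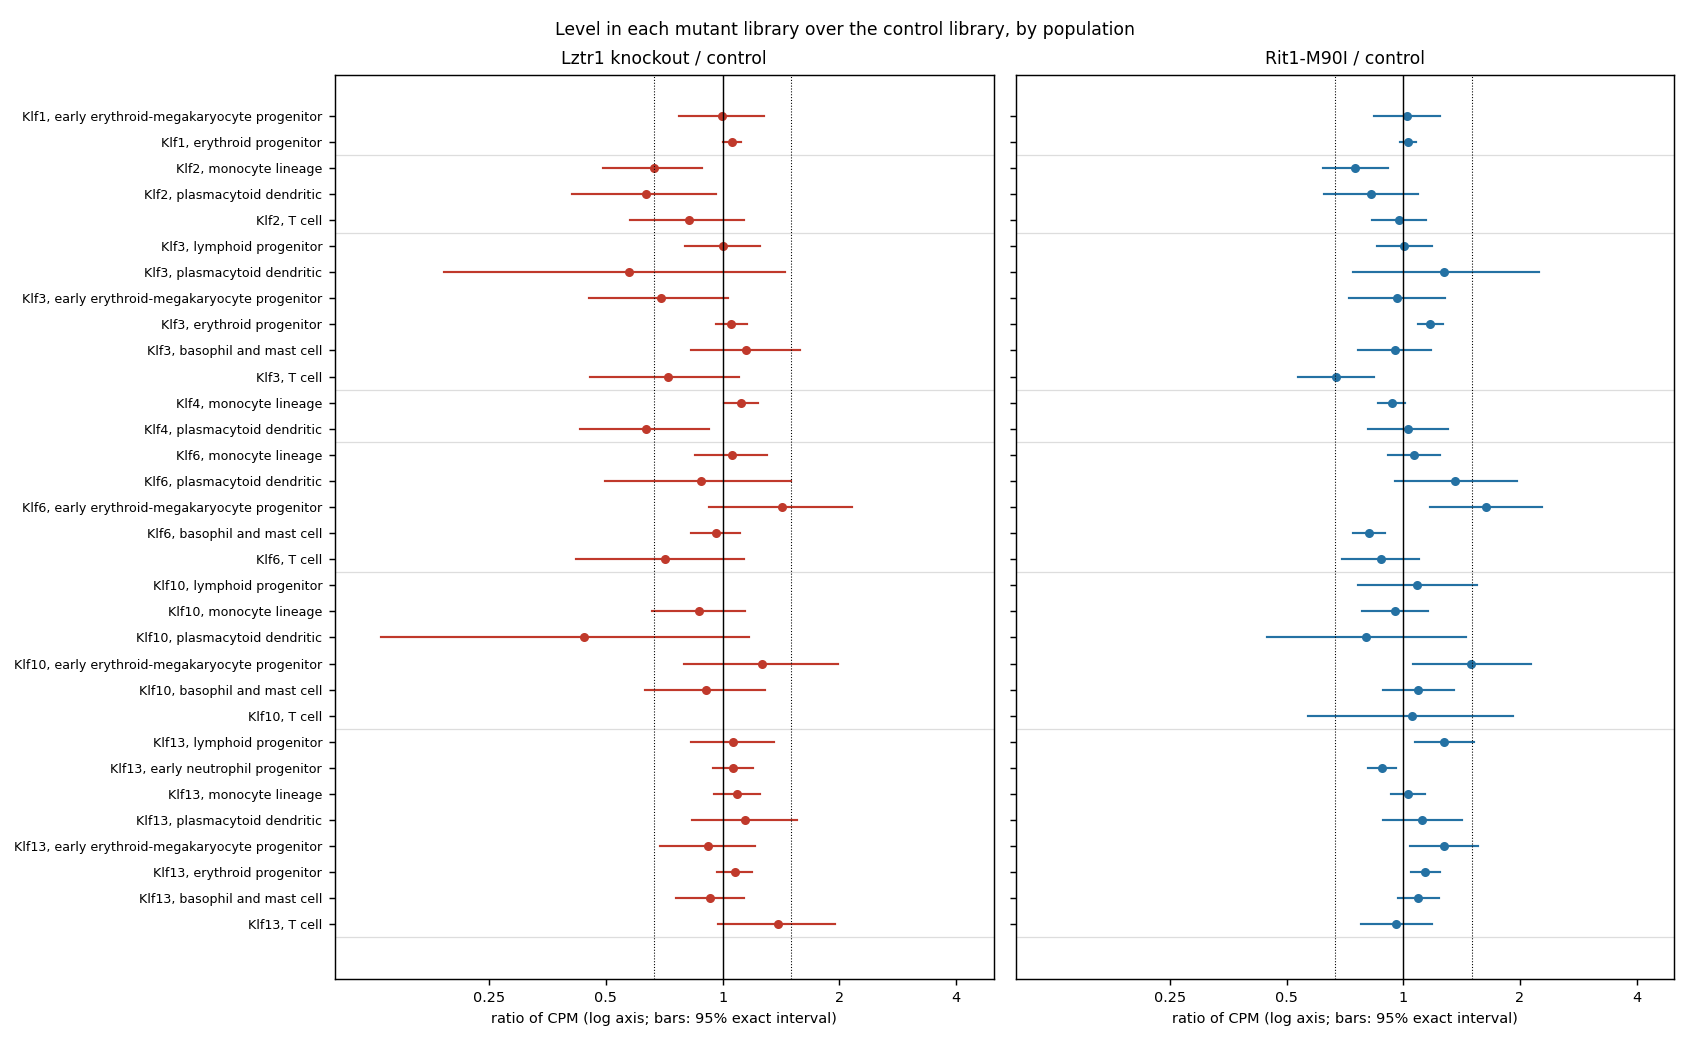
Ratio of mutant to control CPM for each KLF gene in the 8 populations of at least 50 cells in every library. Ratios are on a log axis, where the gene reached 20 CPM in either library. Bars are 95% exact intervals for counting error, and dotted lines mark 1.5-fold either way. Klf10 in knockout T cells, with 0 UMIs, is not drawn. The erythroid progenitor ratios of Klf1 sit at 1.06 and 1.03. Populations with under 50 cells in the knockout, such as NK cells and innate lymphoid precursors, are not drawn.

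Klf1 (ENSMUSG00000054191, GRCm38 chromosome 8, 84901928 to 84905291, plus strand) encodes the activator of globin, heme and red cell membrane genes. Its RefSeq promoter is shown because Klf1 had its peak in the red cell branch. The stretch runs from 250 to 56 bases before the RefSeq start in GRCm38.p6, chr8:84901732-84901926, plus strand, 5′ to 3′, with a GATA match and a CCAAT match in capitals.
Klf1: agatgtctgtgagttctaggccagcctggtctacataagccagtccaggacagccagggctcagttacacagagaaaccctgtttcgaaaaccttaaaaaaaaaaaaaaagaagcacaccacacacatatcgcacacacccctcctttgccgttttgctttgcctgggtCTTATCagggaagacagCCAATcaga
The GATA letters searched were GATAAG on either strand, which 5.38% of 32817 promoter stretches of this length hold; the match here is on the minus strand at -81 to -76. The CCAAT letters, which 27.6% of the stretches hold, lie at -64 to -60. The Klf1 stretch has 3 CpG pairs and 47.2% G and C, near the medians of 4 pairs and 51.3% over all promoters. Among the 5 members whose stretch lay outside annotated genes, GATAAG was in Klf1 alone.

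Klf1 mRNA was concentrated in the red cell branch. In erythroid progenitors it was at 220.3 CPM (213 to 227) in the control, 233 (223 to 243) in the knockout and 226 (219 to 234) in Rit1-M90I. The ratio to control was 1.06 (1.001 to 1.117) and 1.03 (0.980 to 1.08). One stage earlier, early erythroid-megakaryocyte progenitors held 90.7, 90.2 and 92.7 CPM, with ratios of 0.995 (0.771 to 1.27) and 1.02 (0.839 to 1.24). The few erythroblasts (21, 37 and 31 cells) held 308, 324 and 288 CPM. Klf1 thus stood in the same order, early progenitor, erythroid progenitor, erythroblast, in each library.

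Outside that branch Klf1 was at most 10.6 CPM in the control. Control cells with a Klf1 UMI were 88.1% of erythroid progenitors and 1.55% of the monocyte lineage, at median depths of 18346 and 9436.5 UMIs. With every cell thinned to 1000 UMIs the shares were 18.5% and 0.152%. The knockout gave 91.0% and 2.81% (thinned, 19.97% and 0.268%) and Rit1-M90I 84.8% and 1.48% (thinned, 18.7% and 0.184%). Klf1 UMIs outside the red cell branch were compared with those of the carbonic anhydrases Car1 and Car2, which are abundant red cell mRNAs, a comparison added after the data had been seen. For each 100 Car1 and Car2 UMIs, control erythroid progenitors had 4.12 Klf1 UMIs (3.99 to 4.26), early neutrophil progenitors 4.14 (3.01 to 5.56), the monocyte lineage 4.15 (2.25 to 7.07) and basophils and mast cells 4.91 (3.11 to 7.39). The intervals of those 3 non-erythroid populations hold the erythroid progenitor value. In Rit1-M90I the monocyte lineage at 2.36 (1.31 to 3.93) and early neutrophil progenitors at 3.01 (2.32 to 3.85) were below its erythroid progenitors at 3.95 (3.82 to 4.09). Control early erythroid-megakaryocyte progenitors were above its erythroid progenitors at 8.01 (6.97 to 9.17), while stem and multipotent cells at 1.21 (0.443 to 2.66) and lymphoid progenitors at 1.70 (0.620 to 3.74) were below the erythroid progenitor value.

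Of 20 genes known to need KLF1 in red cells, 19 were matched and 8 are also markers used for the populations. In erythroid progenitors 2 of 15 measured genes were past the fold upward and 0 downward in the knockout, and 2 of 14 and 0 in Rit1-M90I, with 0.27% and 0.359% of all genes past it either way. These were the adult beta-globins Hbb-bs, at 104 CPM in the control, 314 in the knockout and 255 in Rit1-M90I, and Hbb-bt, at 106, 239 and 228 CPM. The pair are near-identical copies whose reads can be exchanged. The lowest were Tfr2, a transferrin receptor, at 77.7, 70.7 and 70.3 CPM, with Icam4 at a log2 ratio of -0.10 in the knockout and Cd44 at -0.11 in Rit1-M90I. The median log2 ratio of the list was 0.10 in each comparison, with all genes at -0.01 and -0.02. Erythroblast markers outside the KLF1 list that are not globin genes, 5 genes of later red cells, summed to 155 CPM in cycling erythroid progenitors of the control, 185 in the knockout and 196 in Rit1-M90I, and their part in the globin difference was not tested. In early erythroid-megakaryocyte progenitors 0 of 9 listed genes were past the fold in either comparison (all genes, 2.05% and 0.982%).

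Klf3 (ENSMUSG00000029178, chromosome 5, 64803388 to 64832901, plus strand) encodes a repressor that works through CtBP and whose own gene is a KLF1 target in red cells. It overlaps Gm20033 on the opposite strand, and whether counting used strand is not given in the sources here. Control Klf3 was at 191 CPM (169 to 217) in T cells and 133 (91.5 to 187) in NK cells, which do not differ beyond counting error. NK cells were above lymphoid progenitors at 85.5 CPM, which did not differ from erythroid progenitors at 78.8 or those from innate lymphoid precursors at 75.8. Early neutrophil progenitors and the monocyte lineage were lowest of the 8 populations filled by every library, at 16.4 and 16.1 CPM. Pro-B and pre-B cells were also low, at 18.8 CPM, and plasma cells at 15.2 were the lowest of the 14 populations of at least 50 cells. Basophils and mast cells held 46.0 CPM.

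Between libraries the lymphoid progenitor level was almost constant, at 85.5, 85.8 and 86.1 CPM, with ratios of 1.002 and 1.006. Erythroid progenitors held 78.8 (74.6 to 83.1), 83.0 (77.0 to 89.3) and 92.5 CPM (87.7 to 97.4). The Rit1-M90I ratio there was 1.17 (1.09 to 1.27) and the knockout ratio 1.05 (0.960 to 1.15). T cells went the other way, with 191, 138 and 129 CPM and a Rit1-M90I ratio of 0.672 (0.536 to 0.838), a log2 ratio of -0.54 that stays inside 1.5-fold. In the megakaryocyte lineage Klf3 was at 33.3 CPM in the control and 11.3 in Rit1-M90I, on 22 and 6 UMIs, with a ratio of 0.339 (0.113 to 0.862). With populations taken from joint clusters that log2 ratio was -0.54 in place of -1.02, inside the fold. In innate lymphoid precursors the ratio was 0.541 (0.257 to 1.17), and joint clusters gave a log2 ratio of -0.01 in place of -0.75.

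Klf2 (ENSMUSG00000055148, chromosome 8, 72319033 to 72321656, plus strand) encodes a factor that holds lymphocytes in quiescence and controls their traffic. Its promoter is printed next to that of Klf4, since both hold repeated matches to the CACC-type letters that KLF proteins bind. The stretches are chr8:72318812-72319006, plus strand, for Klf2 and chr4:55532531-55532725, minus strand, for Klf4, in GRCm38.p6 from RefSeq. Capitals mark matches to CCNCNCCC on either strand, where matches may overlap, to an AT-rich palindrome of 10 bases in Klf2 and to the E-box CACGTG in Klf4.
Klf2: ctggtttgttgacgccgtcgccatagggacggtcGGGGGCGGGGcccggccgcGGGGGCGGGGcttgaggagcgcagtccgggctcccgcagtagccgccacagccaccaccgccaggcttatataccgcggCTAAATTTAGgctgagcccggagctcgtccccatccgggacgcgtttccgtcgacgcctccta
Klf4: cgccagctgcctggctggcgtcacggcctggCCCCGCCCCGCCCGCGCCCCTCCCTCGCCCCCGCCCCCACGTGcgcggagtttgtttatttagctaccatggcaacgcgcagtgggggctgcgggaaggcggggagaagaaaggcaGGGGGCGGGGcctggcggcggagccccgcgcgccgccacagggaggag
Klf2 holds 4 matches to CCNCNCCC and Klf4 holds 9, with overlapping matches counted apart, and 35.3% of all promoter stretches hold at least 1. How many matches other stretches of such G and C content hold is not known here. The palindrome of Klf2, of the kind MEF2 factors bind, lies at -118 to -109, and its letters occur in 11 of 32817 stretches (0.0335%). Those letters were chosen after the Klf2 sequence had been read. The E-box of Klf4, at -182 to -177, shares 1 base with a CCNCNCCC match and is held by 4.17% of stretches. Klf2 and Klf4 have 69.7% and 75.9% G and C and 25 and 23 CpG pairs, far above the medians.

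Among control populations of at least 50 cells, Klf2 was highest in NK cells. These held 407 CPM (331 to 494), T cells 288 (260 to 319), pro-B and pre-B cells 287 (219 to 368) and innate lymphoid precursors 146 (96.4 to 213). The 28 mature B cells of the control held 593 CPM (440.3 to 782), and the 57 of Rit1-M90I held 664 (544.5 to 801). The median mature B cell of Rit1-M90I had 11850 CPM of conventional dendritic markers against 10360 of its own. The 2 lists share H2-Aa, at 2962 CPM in those mature B cells, which is only a part of the dendritic sum. The part of dendritic cells in this Klf2 level was not tested. NK cells were above T cells beyond counting error, while T cells and pro-B and pre-B cells were not apart. Plasmacytoid dendritic cells held 96.4 CPM, plasma cells 41.1, the monocyte lineage 27.4 and lymphoid progenitors 9.11. Klf2 was near absent in erythroid progenitors, at 0.355 CPM in the control, 0.468 in the knockout and 0.726 in Rit1-M90I.

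In T cells the libraries held 288, 236 (169 to 320) and 282 CPM (249 to 318), with ratios of 0.819 (0.579 to 1.13) and 0.977 (0.832 to 1.15). The T cell level therefore did not differ beyond counting error. NK cells of Rit1-M90I held 225 CPM (172 to 290) against 407, a ratio of 0.554 (0.395 to 0.769), and this was past 1.5-fold in all 9 alternatives run. Innate lymphoid precursors held 69.1 against 146 CPM, a ratio of 0.473 (0.274 to 0.820), past 1.5-fold in all 7 alternatives run. Immediate early and handling genes, 15 in all, summed to 777 CPM against 1027 in the same NK cells and to 935 against 1045 in the innate lymphoid precursors, and their part in the Klf2 difference was not tested. The highest list of another type in the median NK cell was that of T cells in the control (1896 CPM) and of early neutrophil progenitors in Rit1-M90I (2491 CPM), and its part was not tested either. In NK cells 1 of 7 measured genes of that list was lower past the fold and in innate lymphoid precursors 2 of 10 were lower and 1 higher, with 27.7% and 27.3% of all genes past it.

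The monocyte lineage also had less Klf2 in both mutant libraries. It held 27.4 CPM (23.8 to 31.4) in the control, 18.2 (14.0 to 23.3) in the knockout and 20.6 (17.9 to 23.5) in Rit1-M90I. The ratios were 0.664 (0.493 to 0.884) and 0.752 (0.619 to 0.915), both inside the fold, and joint clusters gave a log2 ratio of -0.07 in place of -0.41 for the knockout. The immediate early and handling genes summed there to 577 CPM in the control, 417 in the knockout and 431 in Rit1-M90I, with 3 of 10 lower in each (all genes, 0.42% and 0.461%), and their part was not tested. Plasmacytoid dendritic cells held 96.4, 61.2 and 79.5 CPM of Klf2, with ratios of 0.635 (0.408 to 0.961) and 0.825 (0.625 to 1.09). The knockout log2 ratio of -0.58 lay just inside 1.5-fold and was past it with joint clusters, with marker and highly abundant genes left out of the total, and with a pseudocount of 1.

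Of 8 genes tied to KLF2, 0 of 5 measured in T cells were past the fold in either comparison, with 23.8% and 4.48% of all genes past it. Among them, the exit receptor S1pr1 was at 64.3 CPM in the control, 86.4 in the knockout and 67.0 in Rit1-M90I. The median log2 ratio of the list was 0.12 and 0.05 in T cells, with all genes at 0.02 and -0.04. The list includes Cd69, at 116, 127 and 119 CPM, which gave the knockout median. Its genes need not all move in the same direction with KLF2, so the median does not measure KLF2 activity. In lymphoid progenitors 1 of 5 was past the fold upward in the knockout, the chemokine receptor Ccr7 at 30.8 against 10.6 CPM, and 0 of 4 in Rit1-M90I, with 1.37% and 0.845% of all genes past it.

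Klf4 (ENSMUSG00000003032, chromosome 4, 55527143 to 55532466, minus strand) encodes a factor tied to monocyte differentiation, and its mRNA was found in the monocyte lineage and in plasmacytoid dendritic cells. The monocyte lineage held 144 CPM (135 to 153) in the control, 160 (147 to 174) in the knockout and 134 (127 to 141) in Rit1-M90I. Plasmacytoid dendritic cells held 119 (99.02 to 141), 75.5 (53.2 to 104) and 122 CPM (104 to 142). The few conventional dendritic cells (26, 18 and 34) were at 203, 186 and 195 CPM. Every other control population of at least 50 cells was at 5.30 CPM or less.

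The monocyte ratios were 1.12 (1.006 to 1.24) in the knockout and 0.932 (0.861 to 1.01) in Rit1-M90I. With joint clusters the levels were 243, 233 and 190.0 CPM and the ratios below 1 in both, at log2 ratios of -0.06 and -0.34, and 20.6% of the gated cells lay in a cluster of that name. In plasmacytoid dendritic cells the knockout ratio was 0.636 (0.429 to 0.923), a log2 ratio of -0.59, and the Rit1-M90I ratio 1.03 (0.811 to 1.30). That knockout difference turned to 0.06 with joint clusters and was inside 1.5-fold with a stricter gate (-0.49) or with doublets kept (-0.55). The same cells had 5 Klf10 UMIs in the knockout and 25 in the control (10.2 and 23.2 CPM), a ratio of 0.440 (0.132 to 1.17) that holds 1. The defining marker Siglech was at 525, 561 and 625 CPM in these cells, Ccr9 at 16.7, 10.2 and 50.1 CPM, and monocyte markers summed to 956 to 1061 CPM in the median cell.

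Early neutrophil progenitors had little Klf4, with 3.08 CPM (2.19 to 4.21) in the control, 5.75 (3.91 to 8.16) in the knockout and 5.79 (4.86 to 6.85) in Rit1-M90I. The ratios were 1.87 (1.12 to 3.07) and 1.88 (1.31 to 2.75), both at levels under the 20 CPM minimum. Of 8 genes tied to KLF4 in monocytes, 3 are also markers used for the populations. In the monocyte lineage 0 of 4 measured were past the fold in either comparison (all genes, 0.42% and 0.461%), and in plasmacytoid dendritic cells 0 of 5 (8.79% and 3.56%). The highest and lowest in the knockout monocyte lineage were the chemokine receptor Ccr2, at 328 against 290 CPM, and the monocyte antigen gene Ly6c2, at 774 against 956 CPM. In Rit1-M90I the highest was also Ccr2, at 324 CPM, and the lowest the transcription factor Irf8, at 1225 against 1424 CPM.

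Klf6 (ENSMUSG00000000078, chromosome 13, 5861482 to 5870394, plus strand) encodes a widely made, inducible factor. Its level in basophils and mast cells stood above that of every other control population of at least 50 cells, so its promoter is shown, chr13:5861239-5861433, plus strand, GRCm38.p6 from RefSeq, with matches to CCAAT and CCNCNCCC on either strand in capitals.
Klf6: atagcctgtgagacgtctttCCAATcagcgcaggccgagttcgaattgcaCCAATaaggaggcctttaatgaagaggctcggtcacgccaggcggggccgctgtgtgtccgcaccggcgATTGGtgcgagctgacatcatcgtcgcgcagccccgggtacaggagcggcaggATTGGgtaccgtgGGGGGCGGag
The stretch holds 4 CCAAT matches and 1 CCNCNCCC match, with 62.6% G and C and 19 CpG pairs. Klf13 holds 2 CCAAT matches and Klf2 and Klf4 none.

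Basophils and mast cells held 244 CPM of Klf6 (228 to 261) in the control, 234 (206 to 266) in the knockout and 199 (186 to 212) in Rit1-M90I. The ratios were 0.961 (0.828 to 1.11) and 0.815 (0.740 to 0.898), so Rit1-M90I was lower beyond counting error and within 1.5-fold. These cells took 5.36% of the control's UMIs and 38.4% of its Klf6 UMIs. In T cells Klf6 was at 154, 109 and 135 CPM, in control NK cells at 133 and in innate lymphoid precursors at 108. Erythroid progenitors were the lowest of the populations of at least 50 cells in each library, with 4.08, 1.64 and 4.56 CPM.

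Klf6 in early erythroid-megakaryocyte progenitors was at 26.1 CPM (20.2 to 33.3) in the control, 37.1 (26.1 to 51.1) in the knockout and 42.7 (34.2 to 52.6) in Rit1-M90I. The ratios were 1.42 (0.922 to 2.15) and 1.63 (1.17 to 2.28), so the Rit1-M90I interval excludes 1 and the knockout interval holds it. On the scale with 10 CPM added the Rit1-M90I log2 ratio was 0.54, inside 1.5-fold. It was past it at 0.67 with the stricter cell filter, at 0.60 without marker and highly abundant genes, and at 0.69 with a pseudocount of 1. In the megakaryocyte lineage Klf6 was at 31.8 CPM in the control and 13.2 in Rit1-M90I, on 21 and 7 UMIs, and the ratio of 0.414 (0.149 to 1.01) holds 1. It was inside the fold under 3 of 9 alternatives.

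Klf10 (ENSMUSG00000037465, chromosome 15, 38291463 to 38300706, minus strand) encodes a factor induced by TGF-beta. It was low throughout, and its control levels ran from 45.4 CPM (38.5 to 53.2) in basophils and mast cells and 44.4 (31.9 to 60.3) in stem and multipotent cells down to 4.64 in plasma cells and 0 UMIs in pro-B and pre-B cells, where the interval reaches 17.3 CPM. Basophils and mast cells held 45.4, 41.2 and 49.6 CPM, with both ratios holding 1. Early erythroid-megakaryocyte progenitors held 24.6, 31.1 and 36.8 CPM, with ratios of 1.27 (0.795 to 1.98) and 1.498 (1.06 to 2.13). The intervals of Klf10, Klf6 and Klf13 lay above 1 in those progenitors of Rit1-M90I, and those of Klf1 (ratio 1.02) and Klf3 (0.963) held 1. How many of all genes had intervals that exclude 1 is not known here. By the 1.5-fold rule 0 of 5 members were past it (all genes, 0.982%). The median log2 ratio of the 5 measured members in those progenitors of Rit1-M90I was 0.31, with all genes at -0.01. The 53 T cells of the knockout held 0 Klf10 UMIs, and 3 UMIs would be 17.3 CPM there. Control T cells were at 21.2 CPM, so the difference was barely detectable at this depth, and its log2 ratio of -1.64 depends on the 10 CPM added. Of 10 genes tied to KLF10 and TGF-beta, 0 of 6 measured in basophils and mast cells were past the fold in either comparison (all genes, 1.83% and 0.552%).

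Klf13 (ENSMUSG00000052040, chromosome 7, 63886351 to 63938915, minus strand) encodes a factor known for its role in T cell chemokine expression, and overlaps Gm27252 and E030018B13Rik on the opposite strand. It was present throughout, from 47.7 CPM in plasma cells to 174 (123 to 240) in pro-B and pre-B cells of the control. T cells at 170 CPM (148 to 193), NK cells at 169 and basophils and mast cells at 136 did not differ from their neighbours in that order. The Rit1-M90I ratio was above 1 in lymphoid progenitors (67.3 and 85.8 CPM, 1.27, 1.07 to 1.52), in early erythroid-megakaryocyte progenitors (77.6 and 98.6 CPM, 1.27, 1.04 to 1.55) and in erythroid progenitors (64.8 and 73.8 CPM, 1.14, 1.05 to 1.24). It was below 1 in early neutrophil progenitors, with 70.3 and 61.9 CPM and a ratio of 0.881 (0.810 to 0.958). None of these was past 1.5-fold. Over all kept cells Klf13 was at 79.2, 82.3 and 82.2 CPM.

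For Klf1 and Klf2 the ratio over all cells differed from the ratio within populations. Klf1 over all cells was at 67.7 CPM (65.7 to 69.7) in the control, 83.4 (80.0 to 86.8) in the knockout and 49.9 (48.3 to 51.4) in Rit1-M90I, with ratios of 1.23 (1.17 to 1.30) and 0.737 (0.705 to 0.769). Erythroid progenitors held 88.2%, 86.5% and 86.2% of the Klf1 UMIs and 27.1%, 30.9% and 19.0% of all UMIs. With the mutant levels of 10 strata (the 8 populations filled by every library, ungated cells, and all smaller populations pooled) weighted by the control's shares of UMIs, the Klf1 ratios were 1.10 and 1.03. The make-up of the pooled stratum is not held by that weighting, and erythroblasts, which are part of it, took 0.364% of the control's UMIs and 1.78% of the knockout's. With every population that had cells in both libraries as a stratum of its own, the Klf1 ratios were 1.04 and 1.02. Both weightings were added after the data had been seen. Sorted shares of cells and RNA content per cell both enter the all-cell value, which alone does not tell them apart. Erythroid progenitors were 12.8%, 17.7% and 9.96% of kept cells. Their median depths were 18346, 21369 and 16527 UMIs, against 6861, 9922.5 and 6590 over all kept cells. The part of each in the Klf1 ratios was not tested.

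Klf2 over all cells was at 23.1 CPM (21.9 to 24.3), 11.2 (9.98 to 12.5) and 18.1 (17.2 to 19.1), with ratios of 0.484 (0.427 to 0.548) and 0.784 (0.728 to 0.843). T cells held 26.4%, 13.3% and 18.3% of Klf2 UMIs, and were 7.03%, 2.27% and 3.24% of kept cells. Weighted to the control's shares, the Klf2 ratios were 0.628 and 0.874 over the 10 strata and 0.647 and 0.847 with every population apart. The knockout difference was inside 1.5-fold with the stricter cell filter, at a log2 ratio of -0.49 in place of -0.64. The immediate early and handling genes summed over all cells to 509 CPM in the control, 363 in the knockout and 412 in Rit1-M90I, with 2 of 9 lower in each (all genes, 0.658% and 0.566%), and their part was not tested. Klf6 over all cells had ratios of 0.760 and 0.942, which were 0.917 and 0.963 over the 10 weighted strata and 0.913 and 0.959 with every population apart. The 4 other members had all-cell ratios between 0.865 and 1.17.

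**Figure D3:**
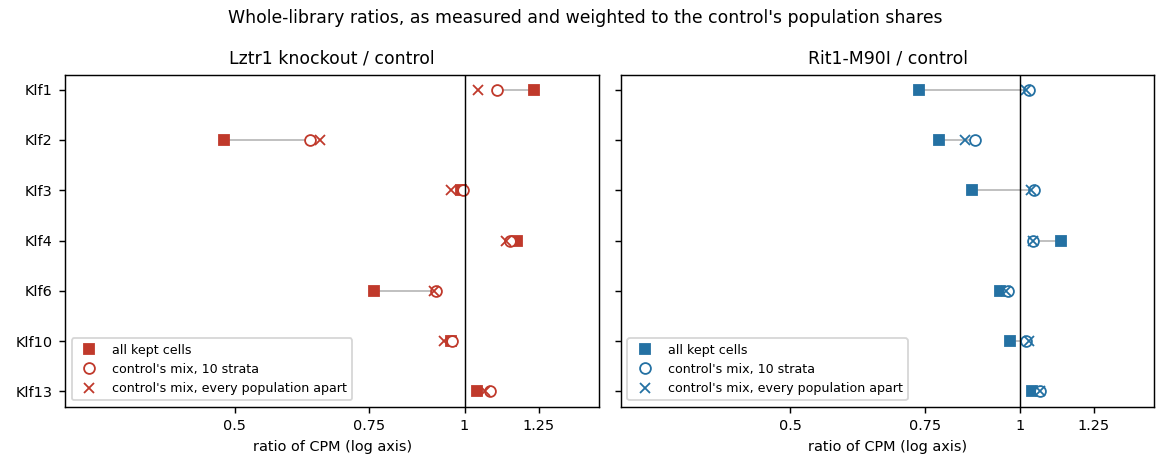
Ratio of mutant to control for each KLF gene over all kept cells (squares) and weighted to the control's shares of UMIs over 10 strata (open circles) or with every population apart (crosses), on a log axis, for the Lztr1 knockout and Rit1-M90I. Klf1 moves from 1.23 to 1.10 and 1.04 in the knockout and from 0.737 to 1.03 and 1.02 in Rit1-M90I, and Klf2 in the knockout from 0.484 to 0.628 and 0.647.

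Within erythroid progenitors, Klf1, Klf3 and Klf10 differed between cycling and non-cycling cells, in the same direction in each library. How many of all genes differed in this split is not known here, so whether the differences are particular to KLF genes is not known either. Cells with at least 2 UMIs of 12 cell cycle genes and at least 5 per 10000 were called cycling, which 79.7%, 80.6% and 81.7% of erythroid progenitors were. Klf1 was at 228 CPM in cycling and 152 in non-cycling control cells, 240.4 and 160.3 in the knockout, and 235 and 145 in Rit1-M90I. The ratios were 1.503 (1.33 to 1.71), 1.499 (1.254 to 1.81) and 1.62 (1.41 to 1.88). Klf3 showed the same direction, with ratios of 1.66 (1.33 to 2.09), 1.79 (1.29 to 2.53) and 1.43 (1.16 to 1.77). The Rit1-M90I Klf3 ratio was 1.06 with joint clusters and 1.15 with a score over all markers, and no knockout ratio could be given under either. Klf10 was lower in cycling cells, with 13.2 against 29.3 CPM, 16.4 against 34.8 and 14.4 against 31.6, and ratios of 0.449 (0.329 to 0.624), 0.471 (0.311 to 0.738) and 0.454 (0.327 to 0.643). Klf13 ratios of 0.915, 0.925 and 1.2 all had intervals that hold 1.

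The cycling call rests on UMIs, and the median cycling cell was deeper, with 20515 against 8336 UMIs in the control, 23661 against 9475 in the knockout and 18691.5 against 7581 in Rit1-M90I. Stage markers moved with the same split. The 8 markers of early erythroid-megakaryocyte progenitors summed to 2260, 2229 and 2186 CPM in non-cycling cells and to 796, 704 and 751 in cycling ones. The 12 erythroblast markers summed to 102, 129 and 119 CPM in non-cycling cells and to 610, 1235 and 1127 in cycling ones. That list includes Hbb-bs, Hbb-bt and 3 other genes of the KLF1 list. Its 5 genes that are neither on that list nor globins summed to 75.3, 92.0 and 77.3 CPM in non-cycling cells and to 155, 185 and 196 in cycling ones. The part of depth and of stage in the KLF differences was not tested.

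**Figure D4:**
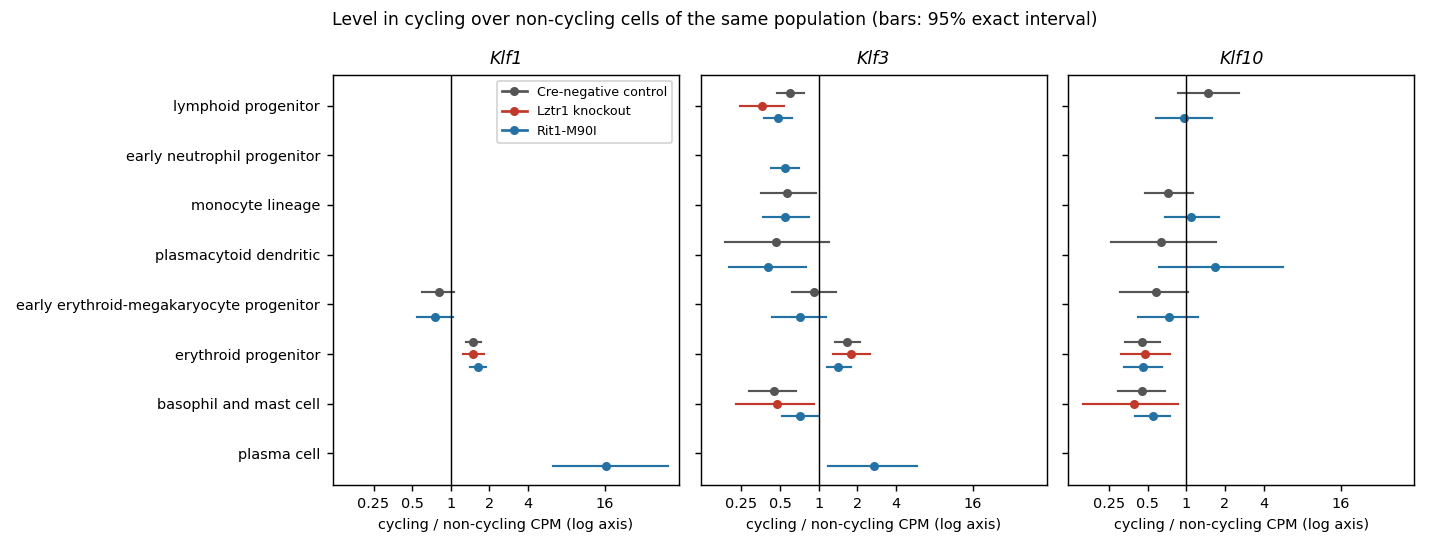
Ratio of cycling to non-cycling CPM for Klf1, Klf3 and Klf10 by population and library, where the gene reached 20 CPM in cycling or non-cycling cells, with 95% exact intervals for counting error on a log axis. In erythroid progenitors Klf1 and Klf3 lie above 1 and Klf10 below 1 in all 3 libraries, while Klf3 lies below 1 in lymphoid progenitors and in basophils and mast cells. In plasma cells of Rit1-M90I Klf1 and Klf3 lie above 1, at 16.3 and 2.70.

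Klf3 was lower in cycling cells of several populations outside the red cell branch. In lymphoid progenitors it was at 65.9 CPM in cycling and 110 in non-cycling control cells, with ratios of 0.602 (0.473 to 0.764), 0.364 (0.243 to 0.539) and 0.481 (0.374 to 0.616). In basophils and mast cells the ratios were 0.445 (0.287 to 0.672), 0.474 (0.227 to 0.917) and 0.718 (0.520 to 0.982). In the monocyte lineage they were 0.571 (0.357 to 0.952) in the control and 0.549 (0.369 to 0.845) in Rit1-M90I. Early neutrophil progenitors gave 0.757 (0.563 to 1.02) and 0.543 (0.423 to 0.706), and plasmacytoid dendritic cells 0.461 (0.186 to 1.21) and 0.399 (0.2001 to 0.797), in the same order. With joint clusters the control ratio was 1.06 in early neutrophil progenitors and 1.2 in plasmacytoid dendritic cells. Klf3 was thus lower in cycling cells of each of these populations apart from those control values from joint clusters, with intervals that hold 1 for the control in the last 2 populations. Cells gated as plasma cells in Rit1-M90I went the other way, with Klf3 at 28.0 CPM in cycling and 10.4 in non-cycling cells and a ratio of 2.70 (1.17 to 5.85). The 71 cycling cells there were far shallower, with a median of 1580 UMIs against 10325 in the 201 non-cycling ones. Klf1 was also higher in the same cycling cells, at 48.4 against 2.97 CPM, a ratio of 16.3 (6.26 to 49.9). The part of red cell RNA and of depth in the Klf3 difference was not tested.

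In basophils and mast cells Klf6 and Klf10 were also lower in cycling cells of each library, and Klf13 in those of the control. The median cycling cell there was deeper, with 4492 against 2157 UMIs in the control, 5321 against 2612 in the knockout and 3795 against 2252 in Rit1-M90I. The part of depth was not tested, and how many of all genes were lower in this split is not known here. Klf6 was at 176 CPM in cycling and 279 in non-cycling control cells, with ratios of 0.631 (0.535 to 0.741), 0.744 (0.558 to 0.984) and 0.665 (0.573 to 0.770). Klf10 ratios were 0.453 (0.291 to 0.683), 0.390 (0.156 to 0.859) and 0.546 (0.395 to 0.744). Klf13 ratios were 0.663 (0.532 to 0.820), 0.693 (0.461 to 1.02) and 0.866 (0.735 to 1.02), of which the control alone excludes 1. The share of cycling cells among basophils and mast cells was 22.4%, 26.1% and 29.4%. In early erythroid-megakaryocyte progenitors the Klf6 ratio was 1.98 (1.19 to 3.33) in the control and 0.527 (0.299 to 0.888) in Rit1-M90I, and the difference between them was not tested.

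Of the 10 other KLF genes, Klf7 and Klf9 reached 20 CPM over all cells, and 0 of 2 were past the fold in either comparison, with 0.658% and 0.566% of all genes past it. Klf7, Klf5 and Klf11 had their highest control level in basophils and mast cells, at 155, 56.2 and 25.1 CPM, and Klf9 in erythroid progenitors, at 46.8 CPM. Of 9 SP genes, which share the KLF zinc finger type, Sp1 and Sp3 were measured and 0 of 2 were past the fold. Of 12 corepressor and coactivator genes, such as Ctbp1 and Ep300, 9 were measured and 0 were past the fold.

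For each member, the 3 genes outside the KLF family with the most similar profile over the 14 control populations were listed by Pearson's r of log2(CPM + 10). None is a marker used for the populations, and all populations of a library come from the same sort. Their depths differ, with control medians from 1547.5 UMIs in pro-B and pre-B cells to 18346 in erythroid progenitors. The part of depth in these r values was not tested. Epdr1 (r 0.993), Atp1b2 (0.976) and Tspo2 (0.973) were most like Klf1, and in the other libraries their r was 0.9497 to 0.994. Grap (0.943), Slamf6 (0.933) and Ppp1r16b (0.928) were most like Klf2, with 0.869 to 0.955 elsewhere. Ppfia4 (0.971), Upb1 (0.960) and Pld4 (0.946) were most like Klf4, with 0.914 to 0.953 elsewhere.

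Pkp3 (0.952), Mfsd6 (0.946) and Cln3 (0.935) were most like Klf6, with 0.706 to 0.977 elsewhere, and Btg1 (0.960), Nedd9 (0.930) and Lrp10 (0.928) most like Klf13, with 0.673 to 0.940 elsewhere. Peak1 (0.885), Lfng (0.863) and Gem (0.861) were most like Klf3, with 0.548 to 0.805 elsewhere. Nfic (0.929), Abca2 (0.914) and Adipor2 (0.886) were most like Klf10, with r over the 8 knockout populations of 0.441, -0.111 and 0.654.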

How the data were processed

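Raw UMI counts by gene and cell barcode were deposited by the authors, written by Cell Ranger 6.1.1 per the file headers; the submitters' processing notes name mm10 and Seurat 4.1.0. Annotation release and strand use are not given in the sources here. Barcodes were kept at 1000 UMIs, 500 genes and at most 10% mitochondrial UMIs, and scrublet doublets were removed (scanpy 1.11.5). A marker's log UMIs per 10000 were scaled to its 90th percentile, and a gate needed a mean of at least 0.5 over its 5 highest markers, 3 markers detected and a margin of 0.1 over other lineages. This rule was set after the data were seen, as the last of 12 versions, with KLF levels in view for 2. Between 16.9% and 18.1% of cells lay within 0.05 of a limit. UMIs were summed per population and library; CPM and ratios carry exact Poisson and conditional 95% intervals, and log2 ratios use a pseudocount of 10. With 1 library per genotype no p-value was computed. Members and lists were chosen with earlier results of these data known. The genes named are the members, for each the 3 most similar genes outside the family at 50 CPM or more in some population, and up to 2 highest and 2 lowest genes of a list. Thinned shares were added after the data were seen. Scripts were tested on simulated data. RefSeq promoters matched 6 of 7 members; the Klf3 stretch lies in annotated genes and is not printed.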

Additional observations from a re-analysis of the deposited data

How the results depend on the processing

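No paired analysis was possible because each genotype has 1 library. Alternatives marked here as added were chosen after seeing the data: a score over all markers, a score over 6 markers, a margin over every other population, cells of at least 10000 UMIs, a stricter cycling limit and every population as a stratum of its own. The last moved 1 of 14 ratios weighted to the control's population shares beyond the width of its whole-library interval, that of Klf1 in the knockout, from 1.10 to 1.04. Levels below are in CPM, in the order control, knockout and Rit1-M90I where 3 are given. With populations from joint clusters, Klf1 in erythroid progenitors was 212, 220.0 and 214, Klf4 in the monocyte lineage 243, 233 and 190.0, and Klf6 in basophils and mast cells 209 (control) and 191 (knockout). The Klf4 monocyte log2 ratios were then -0.0602 and -0.338, and the erythroid cycling ratios 1.32 (Klf1, control), 1.36 (Klf1, Rit1-M90I) and 1.06 (Klf3, Rit1-M90I). Joint clusters also reversed 3 values: the Klf4 log2 ratio of knockout plasmacytoid dendritic cells (0.0602) and the control Klf3 cycling ratios of early neutrophil progenitors (1.06) and plasmacytoid dendritic cells (1.2). Only 20.6% of monocyte and 37.4% of early neutrophil gated cells lay in a cluster of that name, against 99.8% of basophils and mast cells. With each cell weighted equally, Klf1 was 206 (control) and 209 (Rit1-M90I), Klf4 192, 215 and 170.0, Klf6 300, 274 and 236, and Klf10 in basophils and mast cells 58.6 (control) and 60.7 (Rit1-M90I). The stricter gate gave Klf4 levels of 182, 196 and 158 and a control Klf6 level of 266. The stricter cell filter gave 255 for Klf2 in control T cells, 212 (control) and 170.0 (Rit1-M90I) for Klf6, and 35.3 (control) and 42.7 (Rit1-M90I) for Klf10. The score over all markers gave 228 for control Klf1 and a Klf3 cycling ratio of 1.15 in Rit1-M90I. The cause of these changes was not tested. Of the 9 ratios past 1.5-fold, Klf10 in knockout T cells (log2 -4.47 to -1.22), Klf10 in knockout plasmacytoid dendritic cells (-1.21 to -0.59), Klf2 in Rit1-M90I NK cells (-0.85 to -0.62) and Klf2 in Rit1-M90I innate lymphoid precursors (-1.59 to -0.73) stayed past it under every alternative run for them. Both Klf10 ratios rest on few knockout UMIs, 0 in T cells and 5 in plasmacytoid dendritic cells. Their ratio intervals hold 1 (0 to 1.07 and 0.132 to 1.17), so staying past the fold says little about them. Klf2 over all cells of the knockout ranged from -0.98 to -0.49. Without the filter on low genes, 11 of the 23 shares of all genes past the fold moved by more than 1.5 times. No value could be given for knockout T cells under the stricter gate, the stricter cell filter and the all-marker score, which leave under 50 cells, for the knockout erythroid cycling split under joint clusters and the all-marker score, and for 3 of 9 erythroid cycling ratios in cells of at least 10000 UMIs. Of all genes, 27.7% were past the fold in Rit1-M90I NK cells, 27.3% in its innate lymphoid precursors and 23.8% in knockout T cells.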
